A study of Mus musculus with 18 samples.

Results

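The comparison described here sets the first Snf2h knockout (ko) libraries of mouse embryonic stem (ES) cells against the first wild-type libraries. Its members are the 4 libraries whose labels number them replicate 1 or 2 of ko or of wild type, out of 18 in the series. Snf2h ko (ko 1 and ko 2, n = 2) was set against wild type (wt 1 and wt 2, n = 2). The other libraries are wt 3 to wt 8, ko 3 to ko 5, and ko cells in which Snf2h was expressed again as an ATPase mutant or in its wild-type form. All cells carry the 129S6/SvEvTac background and were kept in serum-containing medium with LIF, a cytokine that holds ES cells undifferentiated. Wild-type cells grew on gelatin, whereas the ko line was placed on mouse embryonic fibroblast (MEF) feeders for at least its early passages after thawing. Genotype and feeder culture therefore coincide and cannot be told apart in this design. The labels do not say how many ko clones were used, nor which libraries came from separate cultures. The p-values below measure the spread between these libraries, which may be technical.

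Smarca5 encodes Snf2h, an ISWI family ATPase that, with partner proteins, moves nucleosomes along DNA and sets their spacing. ES cells correspond to the epiblast of the early embryo. The primitive endoderm, the sister lineage of the epiblast, is specified by GATA factors, gives rise to parietal and visceral endoderm, and secretes laminin and type IV collagen into a basement membrane. The visceral endoderm takes up proteins and lipids through the cubilin and megalin receptors.

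Libraries held 24.3 and 24.9 M counts in ko and 22.9 and 25.3 M in wild type, against totals between 15295268 and 36980127 counts over the series. Replicates differed by more than counting noise, by a chi-square per gene of 2.48 between the ko libraries and 1.82 between the wild-type libraries, so each was kept as a separate sample. The common biological coefficient of variation was 0.0270, which is small, and modest changes therefore passed the test. Levels are given as CPM, counts divided by the normalised library size in M. Changes are log2 of ko over wild type with the adjusted p of edgeR's quasi-likelihood test. The standard error (SE) after ± was back-calculated as the absolute log2 change over the square root of that test's F statistic. It can be smaller than counting error where either group has few counts, as for Tnc with 3 and 4 counts in wild type. The pluripotency factor gene Pou5f1, a defining ES cell marker, had 1237 and 1291 CPM in ko and 1229 and 1240 CPM in wild type, a difference of 0.03 ± 0.03 that did not pass the test (adjusted p = 0.35).

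Smarca5 (Entrez 93762, GRCm38 chromosome 8, 80699943 to 80739459) had 9.78 and 9.05 CPM in ko, against 213 and 204 CPM in wild type. It was thus 22.2-fold lower in ko (log2 change −4.47 ± 0.06, adjusted p = 1.5e-21), and the groups did not overlap. Which exons were removed is not given in the sources used here, so the remaining reads were not assigned to a part of the transcript. Smarca1, which encodes Snf2l, the other ISWI ATPase, was lower too, with 16.55 and 15.99 CPM in ko and 28.9 and 27.1 CPM in wild type (−0.78 ± 0.07, adjusted p = 5.0e-09).

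Of 14742 genes tested, 11083 were called at an adjusted p under 0.05, 5570 higher and 5513 lower in ko. These are 37.8% and 37.4% of all genes tested, and the median log2 change over all of them was 0.00. A change of at least 2-fold was called for 3057 genes, 1712 higher (11.6%) and 1345 lower (9.12%). Counts of called members in the lists below are to be read against these shares. For 12758 of the 14742 genes tested the ko and wild-type libraries did not overlap, so lack of overlap was common. RNA came from whole cultures, so fewer cells of a type and less RNA per cell cannot be told apart.

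Genes of the primitive endoderm and its derivatives were higher in ko across transcription factors, signals, matrix and transport genes. In 4 lists with 58 genes, 55 passed the filter on low counts, 48 of these were called higher and 4 lower, and 40 were at least 2-fold higher. Their median log2 change was 1.64. The comparison and the lists were chosen with a rise of endoderm genes in these libraries already known. These counts therefore describe that rise and test nothing. Cer1, Afp and Apoa1 did not pass the filter, with at most 8 counts in any of the 4 libraries. Elf3, Igfbp7 and Rbp4 were tested and not called.

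**Figure D1:**
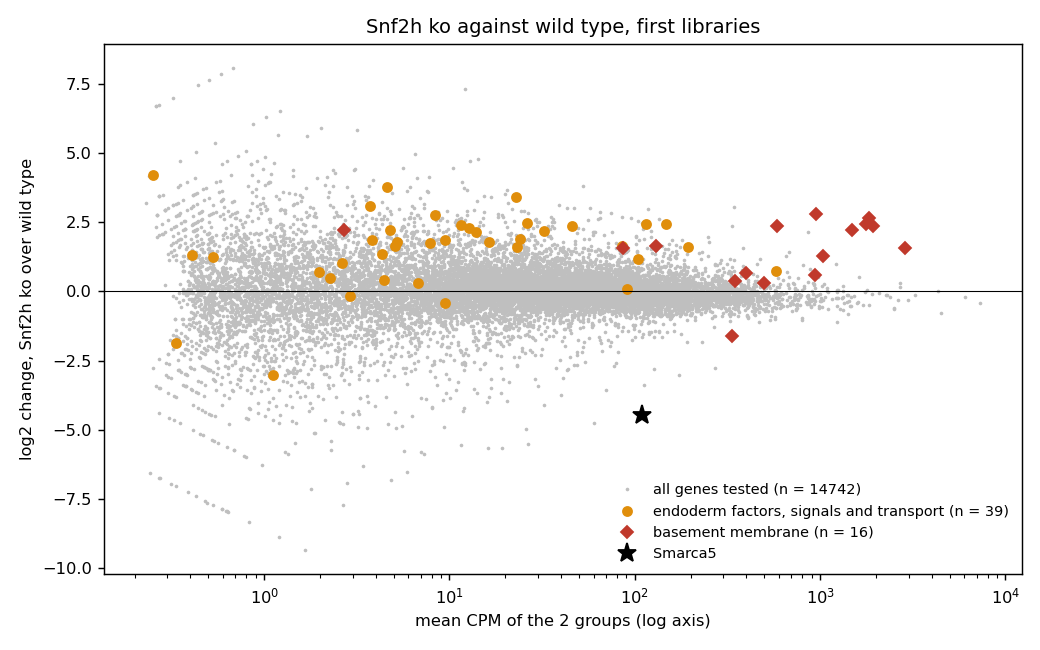
Log2 change of ko over wild type (vertical axis) against the mean CPM of the 2 groups (horizontal log axis) for the 14742 genes tested in the first libraries, each gene a point, with endoderm list members in orange, basement membrane genes as red diamonds and Smarca5 as a star. Most basement membrane genes lie among the highest levels and above 0, up to 2.81 for Col4a2, while Smarca5 lies at −4.47.

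Among the endoderm transcription factors 10 of 12 tested genes rose, 8 of them at least 2-fold, and 1 fell, with a median log2 change of 1.66. Gata4, a zinc finger factor of the primitive endoderm (chromosome 14, 63198914 to 63271712), had 187 and 202 CPM in ko, against 35.3 and 37.3 CPM in wild type (2.42 ± 0.05, adjusted p = 5.1e-19). Gata6, which specifies the primitive endoderm (chromosome 18, 11052510 to 11085636), had 53.4 and 52.1 CPM in ko and 11.3 and 11.8 CPM in wild type (2.19 ± 0.07, adjusted p = 1.3e-16). Both ko libraries were several-fold above both wild-type libraries for each GATA factor. Sox17, an HMG box factor of extraembryonic and definitive endoderm (chromosome 1, 4490928 to 4497426), stood at 47.5 and 41.6 CPM in ko and at 8.05 and 8.04 CPM in wild type (2.47 ± 0.08, adjusted p = 9.0e-16). Foxa2, a forkhead factor of endoderm, had 20.1 and 18.8 CPM in ko, against 3.47 and 3.84 CPM in wild type (2.41 ± 0.11, adjusted p = 5.1e-14). The largest change in the list was that of another forkhead gene, Foxq1, at 3.39 ± 0.09 (40.4 and 43.1 CPM in ko, 3.60 and 4.32 CPM in wild type).

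The remaining factors moved less. Sox7 (1.58 ± 0.07) and Hnf4a (1.33 ± 0.15), the last a nuclear receptor of visceral endoderm and liver, rose more than 2-fold. Cebpa (0.70) and Hhex (0.28) passed the test with smaller changes, and both calls were lost under DESeq2 (adjusted p = 0.12 and 0.26). Cebpa lost its call without wt 1 as well (0.46), and Hhex without ko 2, wt 1 or wt 2 (0.24 to 0.34). Foxa1 fell (−1.87 ± 0.51, adjusted p = 0.0026), but it rested on 3 and 4 counts in ko and 12 and 13 counts in wild type, and DESeq2 did not call it. Elf3, an ETS factor of epithelia, had 87.9 and 100.2 CPM in ko and 86.3 and 89.6 CPM in wild type and was not called.

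**Figure D2:**
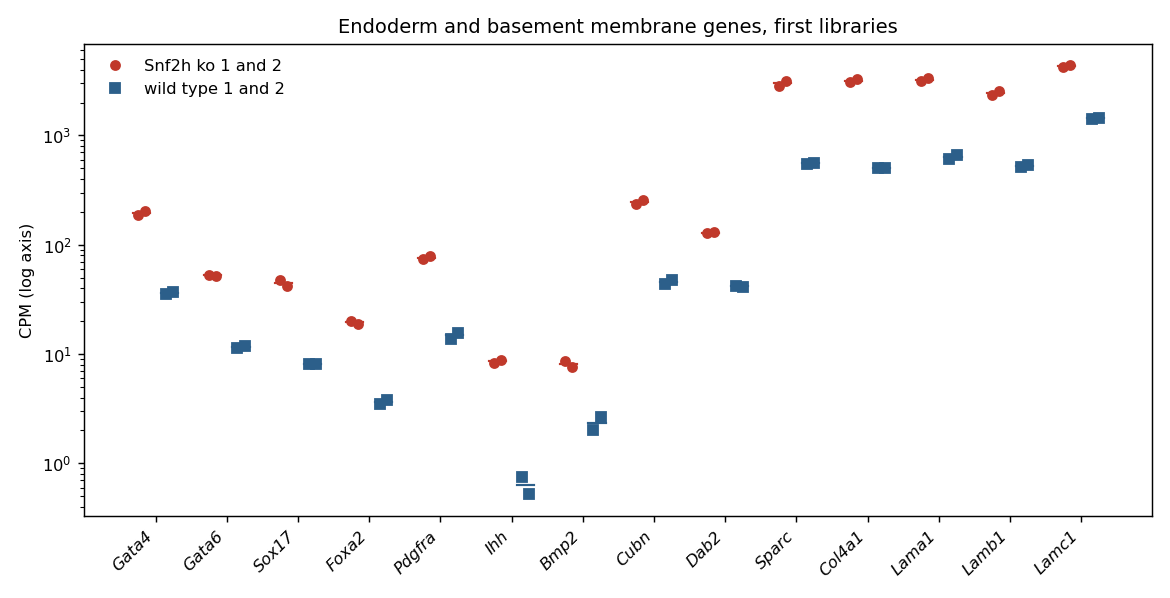
CPM on a log axis for 14 endoderm and basement membrane genes in each of the 4 first libraries, with ko as red circles left of wild type as blue squares and a line at each mean (n = 2). The ko points lie above the wild-type points for every gene drawn, for example at 187 and 202 CPM against 35.3 and 37.3 CPM for Gata4.

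Promoter sequences of endoderm members were searched for the letters GATAA on both strands, the core of the site that GATA factors recognise, since GATA factor genes were among those that rose. RefSeq windows of the 250 bases before a start (GRCm38.p6) were at hand for 37 of the 55 tested members, and 8 of these (21.6%) held a match. The share was 17.2% among 11558 tested genes with a window and 25.5% among all 27025 genes with a window. Foxa2, with a match in 1 of 3 windows, and Dab2, with a match in 1 of 2, are shown as a transcription factor and an uptake adaptor among these 8. Hnf4a was another factor with a match. The Foxa2 window shown lies inside the RefSeq gene span (148042877 to 148046969), before a start within that span. The windows of Foxa2 and Dab2 lie at chr2:148045465-148045714 on the minus strand and chr15:6299539-6299788 on the plus strand. Each is written 5′ to 3′ with the match in capitals.
Foxa2: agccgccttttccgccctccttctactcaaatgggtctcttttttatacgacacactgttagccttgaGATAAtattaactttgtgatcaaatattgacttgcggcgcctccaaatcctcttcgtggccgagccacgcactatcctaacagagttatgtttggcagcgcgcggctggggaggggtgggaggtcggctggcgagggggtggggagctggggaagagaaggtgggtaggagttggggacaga
Dab2: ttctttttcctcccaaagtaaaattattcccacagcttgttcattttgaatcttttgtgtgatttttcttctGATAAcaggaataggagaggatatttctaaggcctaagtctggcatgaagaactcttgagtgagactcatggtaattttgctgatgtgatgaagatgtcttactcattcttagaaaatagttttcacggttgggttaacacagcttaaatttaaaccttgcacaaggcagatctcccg
A match gives the letters only and says nothing about binding.

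Of the endoderm signals and receptors 12 of 13 tested genes rose, each at least 2-fold, and none was called lower (median 1.91). Pdgfra, the PDGF receptor that marks the primitive endoderm (chromosome 5, 75151322 to 75198206), had 74.4 and 78.2 CPM in ko, against 13.9 and 15.7 CPM in wild type (2.36 ± 0.06, adjusted p = 2.2e-17). Ihh, a hedgehog ligand of visceral endoderm, had 8.36 and 8.77 CPM in ko and 0.756 and 0.520 CPM in wild type (3.75 ± 0.19, adjusted p = 5.8e-13). The ko libraries lay above the wild-type libraries for both. Dkk1, a secreted Wnt inhibitor, rose by 3.10 ± 0.20, and Bmp2, a ligand from visceral endoderm, by 1.79 ± 0.15. Receptors that rose were Fgfr4 (2.14 ± 0.09) and Pth1r (1.91 ± 0.09), the PTH receptor of parietal endoderm. Thrombomodulin, encoded by Thbd and likewise found on parietal endoderm, rose by 2.76 ± 0.13. Fst, encoding the activin antagonist follistatin, rose by 1.86 ± 0.12, Plat, a plasminogen activator gene, by 1.64 ± 0.17, and Cited1 by 2.22 ± 0.15. Epas1, a hypoxia-inducible factor gene, was already abundant, at 143 and 144 CPM in ko and 65.7 and 62.4 CPM in wild type (1.17 ± 0.04). Cxcr4, a chemokine receptor of definitive endoderm, reached 3.65 and 3.41 CPM in ko, against 1.73 and 1.76 CPM in wild type (1.01 ± 0.18). Igfbp7 had 3.25 and 2.06 CPM in ko and 1.73 and 2.04 CPM in wild type (adjusted p = 0.060).

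Basement membrane genes gave the largest gains in reads. Of 16 genes, all of them tested, 15 rose and 1 fell, with a median of 1.61, and 11 rose at least 2-fold. The list took 2.29% and 2.42% of all counts in ko, against 0.686% and 0.715% in wild type. By difference in CPM, 7 of the 8 largest rises in the transcriptome that met the rule for named genes were members of this list (Lamc1, Col4a1, Lama1, Sparc, Lamb1, Col4a2 and Hspg2), and the remaining one was Ctsl.

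The type IV collagen chains are encoded head to head. Col4a1 (chromosome 8, 11198423 to 11312889) had 3056 and 3275 CPM in ko, against 501 and 509 CPM in wild type (2.65 ± 0.04, adjusted p = 2.0e-21). Its neighbour Col4a2 (chromosome 8, 11312805 to 11449287) had 1578 and 1732 CPM in ko, against 227 and 246 CPM in wild type (2.81 ± 0.05, adjusted p = 3.6e-16). Neither chain overlapped between the groups. In the RefSeq table of promoters (GRCm38.p6), a start of Col4a1 on the minus strand and the start of Col4a2 on the plus strand share 22 bases, printed in capitals within chr8:11312801-11312830, which is shown on the plus strand because these chains changed together.
Col4a1 and Col4a2: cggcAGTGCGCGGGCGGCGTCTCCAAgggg
The sources used here do not give the strand setting of the counting. Reads over this overlap could not be assigned to either gene with certainty.

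The 3 chains of laminin-111, the laminin of the early embryonic basement membrane, rose as well. Lama1 (chromosome 17, 67697127 to 67822645) had 3116 and 3363 CPM in ko and 613 and 660 CPM in wild type (2.35 ± 0.04, adjusted p = 5.5e-18). Lamb1 (chromosome 12, 31265146 to 31329644) had 2325 and 2528 CPM in ko and 519 and 535 CPM in wild type (2.20 ± 0.04, adjusted p = 1.0e-19). Lamc1 (chromosome 1, 153218922 to 153332786) had 4225 and 4370 CPM in ko, against 1418 and 1455 CPM in wild type (1.58 ± 0.03, adjusted p = 3.7e-19). On a per-length scale (RPKM, which is CPM divided by the exon length in kilobases), the mean levels in ko were 336 for Lama1, 253 for Lamb1 and 564 for Lamc1. In wild type they were 66.0 for Lama1, 55.0 for Lamb1 and 188 for Lamc1. Lamc1 was therefore the most abundant of these chains in both genotypes and had the smallest change.

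Sparc, a matrix glycoprotein gene strongly expressed by parietal endoderm, had 2857 and 3124 CPM in ko, against 550 and 561 CPM in wild type (2.43 ± 0.04, adjusted p = 7.9e-20). Serpinh1, the collagen chaperone Hsp47, had 941 and 1016 CPM in ko and 185 and 193 CPM in wild type (2.37 ± 0.04). Collagen hydroxylase genes P4ha2 (1.64 ± 0.05) and P3h2 (2.20 ± 0.20) and the laminin chain gene Lamb2 (1.58 ± 0.05) rose in the same samples. Perlecan, encoded by Hspg2, rose by 1.28 ± 0.04. The nidogen genes changed less, with 0.67 ± 0.03 for Nid1 and 0.60 ± 0.03 for Nid2, and so did Agrn (0.35 ± 0.03) and Lama5 (0.28 ± 0.03), the last not called with all 18 libraries in 1 fit (adjusted p = 0.13). Col18a1, the type XVIII collagen gene, fell, with 162 and 166 CPM in ko and 508 and 496 CPM in wild type (−1.61 ± 0.04, adjusted p = 1.2e-18).

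Among visceral endoderm transport genes 11 of 14 tested members rose, 9 of them at least 2-fold, and 2 fell (median 1.45). Cubn, encoding cubilin (chromosome 2, 13276338 to 13491876), had 238 and 258 CPM in ko, against 44.2 and 48.0 CPM in wild type (2.43 ± 0.05, adjusted p = 8.0e-19). Its partners rose too: Amn, encoding amnionless, by 2.28 ± 0.10, and Lrp2, encoding megalin, by 1.58 ± 0.05. Dab2, the endocytic adaptor of these receptors, had 127 and 129 CPM in ko and 42.0 and 41.1 CPM in wild type (1.63 ± 0.05, adjusted p = 4.4e-17). The genes of secreted carriers were less uniform. Trf, encoding transferrin, rose by 1.77 ± 0.09 and Apoe by 0.72 ± 0.04. Transthyretin reads (Ttr) were scarce, with 24 counts in ko and 1 count in wild type over both libraries, a ratio of 22.9 with a 95% exact binomial interval of 3.73 to 940 that covers counting error only. Apob, whose protein carries lipids in secreted particles, fell to 0.203 and 0.278 CPM in ko, against 2.00 and 2.00 CPM in wild type (−3.03 ± 0.34, adjusted p = 8.5e-08), and Mttp, needed to load those particles, fell by 0.41.

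Genes of other lineages were checked in the same fit. Of 18 primitive streak and mesoderm genes 15 were tested. Of these 11 rose and none was called lower (median 1.10), all at low levels, and DESeq2 called 7 of them. Msx2, a BMP-responsive homeobox gene, had 7.95 and 9.05 CPM in ko, against 2.18 and 2.68 CPM in wild type (1.80 ± 0.15). Trophectoderm genes were mixed, with 9 of 16 higher and 4 lower (median 0.84). The simple keratin genes Krt8 (179 and 189 CPM in ko, 38.1 and 38.9 CPM in wild type) and Krt18 (2.19 ± 0.05) rose, which visceral and parietal endoderm also express, whereas Tfap2c, a trophoblast and germ cell factor, fell (−1.23 ± 0.05). The trophoblast factor gene Gata2 rose, with 35.7 and 34.1 CPM in ko and 7.34 and 8.80 CPM in wild type (2.11 ± 0.08). Cdx2, another such gene, had 88 counts in ko and 3 counts in wild type, a ratio of 28 with a 95% exact interval of 9.26 to 138. Of 14 neuroectoderm genes 7 passed the filter on low counts, of which 5 rose and 1 fell (median 1.28). Among them Sox1 had 11.4 and 8.18 CPM in ko and 4.09 and 3.96 CPM in wild type (1.28 ± 0.15), and Lhx2 rose by 2.77 ± 0.27 at low levels. Of 34 Hox genes 13 passed the filter on low counts, of which 10 rose and none was called lower (median 1.68). Hox, neuroectoderm and primitive streak genes near the floor in wild type could pass through their ko counts. The direction and median of these lists were thus partly set by the filter and test nothing. Of 17 tested retinoic acid response genes 10 rose and 3 fell (median 1.36). Cyp26a1, which degrades retinoic acid, had 13.8 and 15.4 CPM in ko, against 2.31 and 3.20 CPM in wild type (2.39 ± 0.13).

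Markers of embryonic fibroblasts also moved with genotype, and they include matrix genes. Of 21 tested feeder markers 18 rose and 3 fell (median 2.25), and the whole list of 25 genes took 0.0381% and 0.0358% of counts in ko, against 0.0104% and 0.0109% in wild type. Markers near the floor in wild type could pass the filter on low counts through their ko counts. The direction and median of the tested markers were thus partly set by the filter and test nothing. Fbln2, a matrix glycoprotein gene, had 31.3 and 30.2 CPM in ko and 2.71 and 3.04 CPM in wild type (3.41 ± 0.10). Col1a2 (8.68 and 9.33 CPM in ko, 0.889 and 0.640 CPM in wild type) and Lox (4.38 ± 0.30) followed the same direction. Some typical fibroblast genes of the list, picked after their values were seen, were at or near 0. Lum had 0 counts in all 4 libraries, Dcn had 0.0811 and 0 CPM in ko and 0.0445 and 0 CPM in wild type, and Fap had 0 and 0.0794 CPM in ko and 0 and 0.0400 CPM in wild type. Postn, a matrix gene equally typical of fibroblasts and likewise picked, had 120 counts in ko and 1 count in wild type, a ratio of 114 with a 95% exact interval of 20.1 to 4550. In the later libraries the feeder list took 0.0273% to 0.0300% of counts in ko and 0.00978% to 0.0103% in wild type, and its median change there was 2.37. Whether RNA of feeder cells contributed to the matrix genes was not tested.

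Naive and core pluripotency genes changed by smaller steps than some formative and primed genes. Of 25 naive and core factors, all tested, 19 were lower and 5 higher in ko, with a median of −0.28, and none rose 2-fold. Klf2, a Kruppel-like factor of the naive state, had 57.4 and 56.9 CPM in ko, against 147 and 158 CPM in wild type (−1.42 ± 0.05). Tdgf1, the Nodal co-receptor gene, had 521 and 521 CPM in ko and 1093 and 1064 CPM in wild type (−1.05 ± 0.03). Fbxo15 (−1.65 ± 0.04) and Dppa2 (−1.46 ± 0.06) fell too. Formative and primed genes fell in 10 of 15 tested cases, 6 of them at least 2-fold, and rose in 3 (median −0.68). Otx2, a factor of the transition out of naive pluripotency, had 12.05 and 12.03 CPM in ko and 50.6 and 50.9 CPM in wild type (−2.07 ± 0.06). Lef1, a nuclear effector of Wnt signalling, was almost silent, with 0.609 and 0.595 CPM in ko, against 18.6 and 17.4 CPM in wild type (−4.89 ± 0.16), and Zic2, a zinc finger factor gene, fell by 3.86 on the log2 scale.

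TGF-beta and BMP genes moved both ways. Of 17 tested genes 9 rose and 6 fell. Lefty1, a Nodal inhibitor and Nodal target gene (chromosome 1, 180935022 to 180938401), had 4.34 and 4.17 CPM in ko, against 113 and 118 CPM in wild type (−4.77 ± 0.07, adjusted p = 3.8e-21). Lefty2 fell as well (−2.79 ± 0.06). Bmp4, in contrast, had 121 and 124 CPM in ko, against 35.1 and 37.2 CPM in wild type (1.76 ± 0.05). Id1, a classical BMP target, had 96.7 and 91.4 CPM in ko and 30.9 and 33.7 CPM in wild type (1.54 ± 0.05). Targets of YAP and contractile genes rose in 14 of 19 tested cases and fell in 3. Ctgf, encoding a matricellular protein, had 598 and 630 CPM in ko and 72.7 and 77.0 CPM in wild type (3.03 ± 0.04, adjusted p = 2.0e-21), and Cyr61 rose by 1.85 ± 0.04.

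**Figure D3:**
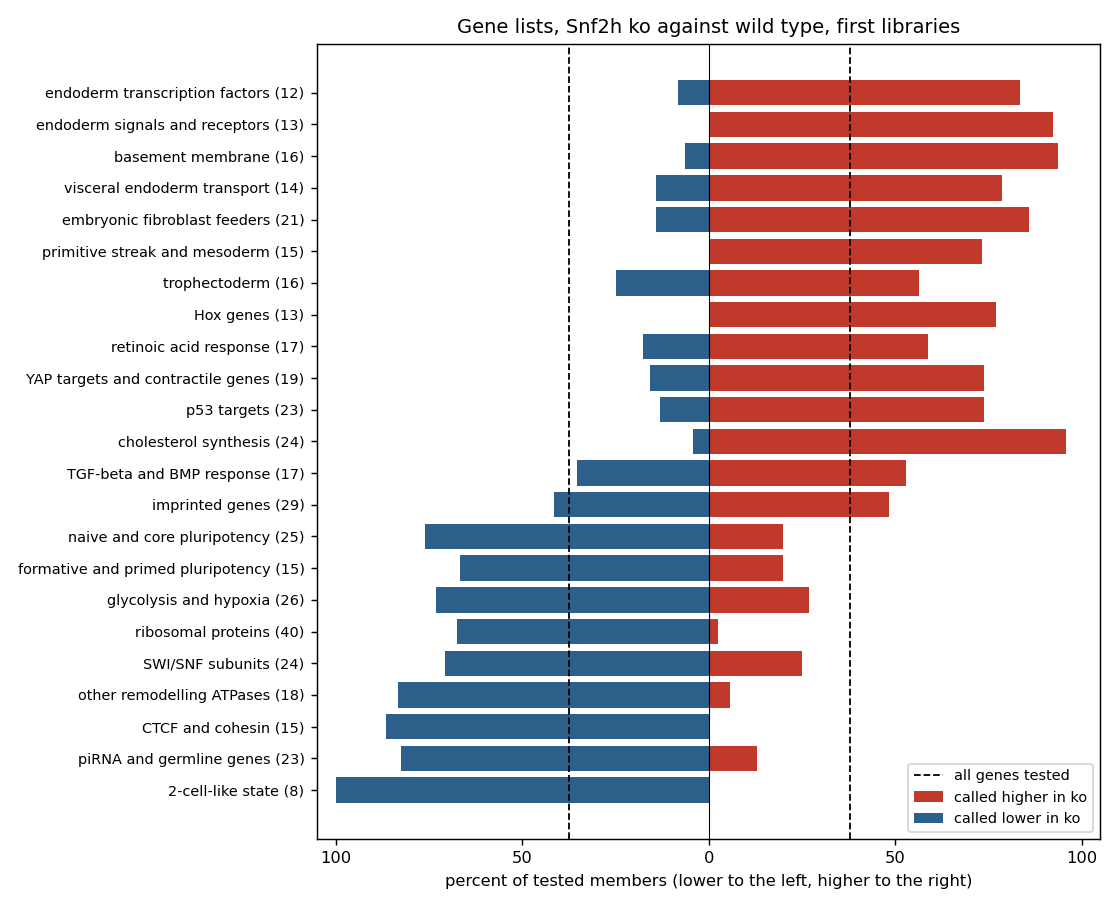
Percent of the tested members of each list called higher (red, to the right) or lower (blue, to the left) in ko against wild type in the first libraries, with the number tested in brackets and dashed lines at the shares of all genes tested (37.8% higher, 37.4% lower). The 4 endoderm lists, chosen with earlier results known, lie far to the right of the dashed line, with 48 of 55 members higher. Other lists do so too, among them cholesterol synthesis (23 of 24) and feeder markers (18 of 21). The 2-cell-like, germline and CTCF lists lie far to the left. Scarce members of lists such as the 2-cell-like, Hox, primitive streak, feeder and germline lists could pass the filter through the group where they were higher.

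Among called genes with an established symbol that averaged 5 CPM or more where they were higher, the 12 largest rises by log2 change were led by Tnc, encoding tenascin-C, a matrix glycoprotein (chromosome 4, 63959785 to 64047015), with 24.4 and 23.6 CPM in ko and 0.133 and 0.160 CPM in wild type (7.30 ± 0.19, adjusted p = 1.3e-17). Those that followed were Rbmy (5.81), Sprr2a1 (4.96), Mybpc3 (4.76), Spock1 (4.71), Aqp8 (4.46), Tmprss2 (4.46), Tshr (4.41), Col12a1 (4.39), Wnt6 (4.11), Adrb1 (4.09) and Ntn4 (4.03). They encode, among others, a myosin-binding protein (Mybpc3), a water channel (Aqp8), the thyrotropin receptor (Tshr) and a collagen of fibrillar tissue (Col12a1). Rbmy belongs to a multicopy family on the Y chromosome, so its count is uncertain.

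Genes of the germline were among the largest falls under the same limits; genes at lower levels reached larger fitted changes in both directions. Tdrd12, a tudor protein gene of the piRNA pathway that silences transposons (chromosome 7, 35466941 to 35537784), had 1.26 and 1.03 CPM in ko, against 50.8 and 52.7 CPM in wild type (−5.50 ± 0.11, adjusted p = 2.3e-19). Rnf17 had 20.77 and 18.97 CPM in ko and 206 and 204 CPM in wild type (−3.37 ± 0.05), and Mov10l1, the piRNA helicase gene, fell by 3.49 on the log2 scale. Of 26 genes in the list 23 were tested. Of these 19 fell, 15 of them at least 2-fold, and 3 rose (median −2.13). Members near the floor in ko could pass the filter on low counts through their wild-type counts. The direction and median of the list were thus partly set by the filter and test nothing. The serine protease gene Prss41 had 0.122 and 0.119 CPM in ko, against 10.9 and 12.4 CPM in wild type (−6.54 ± 0.25, adjusted p = 4.7e-15). Aurkc, a meiotic kinase gene, had 1 count in each ko library and 263 counts over both wild-type libraries, a ratio of wild type over ko of 138 with a 95% exact interval of 37.8 to 1150. Under the same limits the other genes among the 12 largest falls were Magohb (−5.86), Gpat2 (−5.81), Mobp (−5.76), Sohlh2 (−5.65), Uty (−5.65), Cyct (−5.54), Ddx3y (−4.98), Oas3 (−4.95) and Pla2g5 (−4.94). Gpat2 and Sohlh2 act in male germ cells, and Uty and Ddx3y lie on the Y chromosome. Of 16 genes of the 2-cell-like state 8 passed the filter on low counts, and these fell, with a median of −4.35. Genes near the floor in ko could pass that filter through their wild-type counts. The direction and median of this list were therefore partly set by the filter and test nothing. Zscan4c, whose family is near-identical in sequence so that reads may be split between copies, had 0.406 and 0.437 CPM in ko and 7.56 and 7.52 CPM in wild type.

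Most chromatin regulators that were called fell, by less than 2-fold with few exceptions. None of 13 tested ISWI partner genes rose and 9 fell (median −0.30), among them Baz1a, encoding Acf1, a regulatory partner of Snf2h, with 39.8 and 38.5 CPM in ko and 58.7 and 59.4 CPM in wild type (−0.59 ± 0.05). Of 18 other remodelling ATPase genes 15 fell and 1 rose (median −0.31), and of 15 CTCF and cohesin genes 13 fell and none rose (median −0.23). With all 18 libraries in 1 fit, 10 of these ATPase genes and 8 of the CTCF and cohesin genes were called. Of 14 DNA methylation enzyme genes 9 fell, 2 of them at least 2-fold, and 4 rose (median −0.115). In the ISWI, ATPase and CTCF lists the falls beyond 2-fold were those of Chd3 and of Ctcfl, the germ cell paralogue of Ctcf. Chd3, a NuRD complex ATPase gene, had 19.4 and 19.9 CPM in ko and 48.1 and 47.4 CPM in wild type (−1.28 ± 0.06). Ctcfl had 2 counts in ko and 126 in wild type over both libraries, a ratio of wild type over ko of 66.1 with a 95% exact interval of 17.9 to 552. Ctcf itself, the insulator protein gene, had 147 and 147 CPM in ko, against 220 and 213 CPM in wild type (−0.56 ± 0.04, adjusted p = 3.0e-11). Among SWI/SNF genes 17 of 24 fell and 6 rose, and Smarca2, encoding the ATPase Brm, was the only one to rise 2-fold, with 36.2 and 38.6 CPM in ko and 3.96 and 4.32 CPM in wild type (3.17 ± 0.09, adjusted p = 6.3e-17).

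Metabolic genes moved in blocks. Of 24 cholesterol synthesis genes 23 rose and 1 fell (median 0.57), and Cyp51, encoding a sterol demethylase, had 215 and 211 CPM in ko and 90.9 and 95.6 CPM in wild type. Glycolysis and hypoxia genes fell in 19 of 26 cases and rose in 7 (median −0.55). Ldha, encoding a lactate dehydrogenase chain, had 765 and 796 CPM in ko, against 1693 and 1689 CPM in wild type (−1.12 ± 0.03), while Vegfa, a hypoxia target, rose (1.22 ± 0.04). The largest falls by difference in CPM were those of Ncl, encoding nucleolin (3290 and 3375 CPM in ko, 5812 and 5544 CPM in wild type), Hsp90ab1, Pkm, Eno1b, Ldha, Eef1a1, Hnrnpu and Hsp90aa1. Eno1b is a near copy of Eno1, and its reads may belong to either. Of 23 p53 targets 17 rose and 3 fell (median 0.69), for example Cdkn1a, a cell cycle inhibitor gene, with 128 and 133 CPM in ko and 46.2 and 52.4 CPM in wild type. In the imprinted list 14 of 29 tested genes rose and 12 fell. The reciprocally imprinted pair moved apart, with H19 at 19.5 and 21.9 CPM in ko and 134 and 132 CPM in wild type (−2.69 ± 0.05), and Igf2 at 91.4 and 103 CPM in ko and 21.3 and 22.7 CPM in wild type (2.14 ± 0.06).

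A like contrast was set up in libraries that share no sample with the first set, ko 3 to ko 5 against wt 6 to wt 8. Both contrasts were fitted together (14734 genes tested). No label pairs these ko and wild-type libraries. The wild-type libraries wt 6 to wt 8 were taken because their totals were like those of ko 3 to ko 5, known from earlier results. In the later libraries 36.7% of genes were called higher and 36.3% lower. Smarca5 fell by nearly the same amount, −4.41 ± 0.05 in the later libraries, and the difference between the effects did not pass the test (adjusted p = 0.59). Of 3034 genes called at 2-fold or more in the first libraries, 2310 (76.1%) were called in the same direction in the later ones, 169 (5.57%) in the opposite direction, and 555 were not called there. The ko effect itself differed between the sets for 7231 genes (49.1%). This count fell to 1234 when wt 3 to wt 8 stood for wild type in the later comparison.

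The endoderm genes were among those that differed. Of 53 members tested in both sets, 14 were higher and 30 lower in the later ko libraries, with a median of −0.31. The difference between first and later effects was called for 47 of them, 43 with the larger value in the first libraries. With wt 3 to wt 8 as the later wild type, 10 members were higher and 9 lower, and the difference was called positive for 29 and negative for 2. For Gata4 the change was 2.42 in the first and −0.81 ± 0.04 in the later libraries, a difference of 3.22 ± 0.06 (adjusted p = 4.6e-37). Scaled together, Gata4 had 183 and 199 CPM in ko 1 and ko 2 and 34.9 and 36.9 CPM in wt 1 and wt 2. It had 60.2 to 64.1 CPM in ko 3 to ko 5 and 108 to 111 CPM in wt 6 to wt 8. The first ko libraries were thus above the later ko libraries and the first wild-type libraries below the later wild-type libraries. In wt 3 to wt 5, which were left out of this fit, Gata4 had 46.1 to 60.9 CPM when scaled over all 18 libraries. On that scale ko 3 to ko 5 had 59.45 to 63.5 CPM.

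Col4a1 showed the same layout, with 3004 and 3223 CPM in ko 1 and ko 2 and 495 and 504 CPM in wt 1 and wt 2, and with 770.5 to 796 CPM in ko 3 to ko 5 and 977 to 1030 CPM in wt 6 to wt 8. Its difference between first and later effects was 3.01 ± 0.04. Cubn had 234 and 254 CPM in ko 1 and ko 2 and 43.6 and 47.5 CPM in wt 1 and wt 2. In the later sets it had 110 to 128 CPM in ko and 329 to 368 CPM in wild type, so that its highest levels were in later wild type. Pdgfra (difference 3.66 ± 0.09), Gata6 (3.49 ± 0.10) and Lama1 (2.98 ± 0.05) also changed sign between the sets. A minority kept its direction, such as Apoe (0.72 in the first, 0.75 ± 0.03 in the later libraries) and Thbd (2.76 in the first, 1.67 ± 0.16 in the later libraries).

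**Figure D4:**
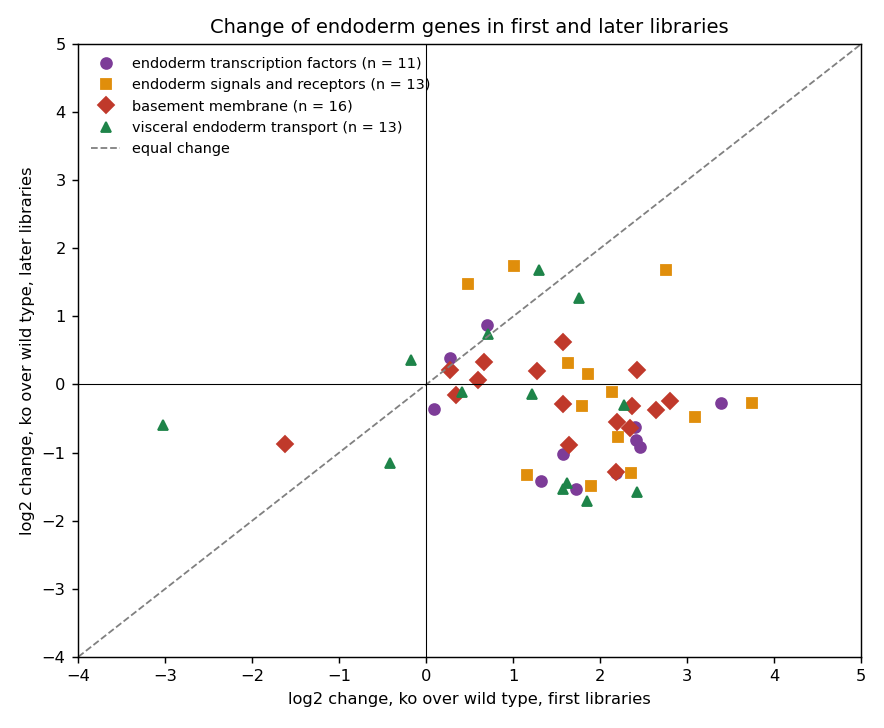
Log2 change of ko over wild type in the first libraries (horizontal axis) against that in the later libraries (vertical axis), from 1 fit of 10 libraries, for the 53 endoderm list members tested in both, with symbols for the 4 lists and a dashed line of equal change. Most points lie to the right of 0 and below the line, for example Gata4 at 2.42 and −0.81.

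Set against all other libraries, the basement membrane genes of the first ko stood highest. Both first ko libraries were above each of the other 16 libraries for 13 of 16 basement membrane genes, against 13.7% of all genes tested. The same held for 7 of 13 signals and receptors and 5 of 12 transcription factors, but for 1 of 14 visceral transport genes. Such shares were not particular to endoderm genes. They were 11 of 23 for p53 targets and 11 of 24 for cholesterol synthesis genes, but 0 of 40 for ribosomal protein genes. In 2 lists written after the values were seen, they were 27 of 37 for lysosomal genes and 17 of 27 for secretory pathway genes. The basement membrane list took 0.602% to 1.23% of counts in the other 16 libraries, of which a mutant add-back library was highest, against 2.29% and 2.42% in the first ko libraries. No label records a difference in culture, passage or date between the sets, and such differences were not tested.

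**Figure D5:**
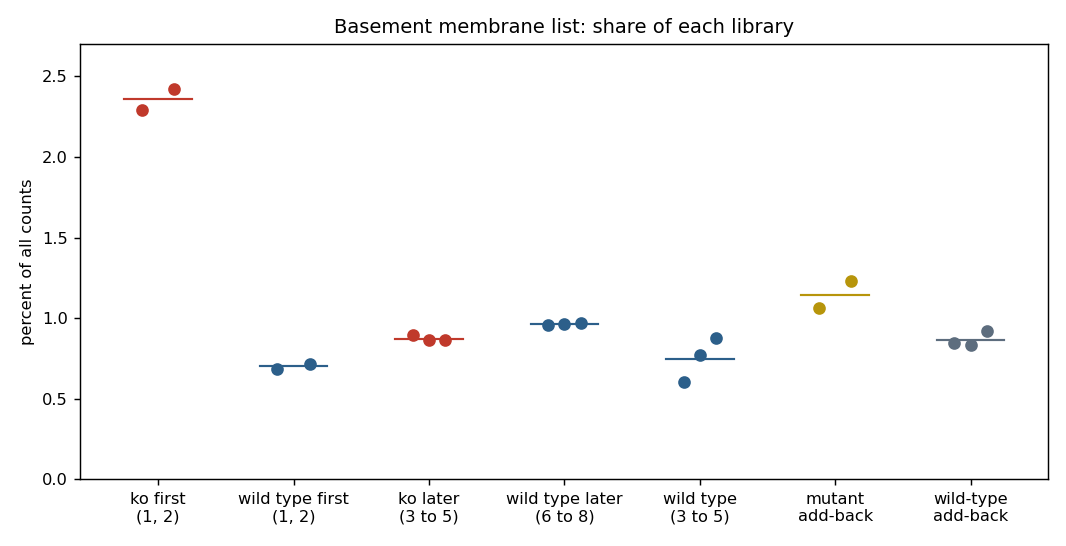
Share of all counts taken by the 16 basement membrane genes in each of the 18 libraries, as percent, with 1 point per library and a line at each mean. The first ko libraries lie at 2.29% and 2.42%, and each other library lies between 0.602% and 1.23%.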

How the data were processed

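The authors deposited 1 table of raw counts of reads per gene, keyed by Entrez identifier, with 1 column for each of 18 libraries. Per the labels' protocols, RNA was isolated with an RNeasy kit and its polyadenylated part made into stranded TruSeq mRNA libraries. Per the submitters' processing notes, bcl2fastq 2.17 and STAR were used with mm10 (GRCm38). The sources used here do not give the version of STAR, nor the tool, gene models and strandedness used for counting.

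The 4 libraries compared were fitted in edgeR 4.0.16 (R 4.3.3) with filterByExpr at a count minimum of 10, TMM scaling and the robust quasi-likelihood test, two-sided, with Benjamini-Hochberg adjustment over 14742 genes and calls at an adjusted p under 0.05. A joint fit added ko 3 to ko 5 and wt 6 to wt 8 and tested the difference of the ko effect between sets. The scripts were tested on simulated data. Alternatives were other scalings and filters, DESeq2 1.42.0, glmTreat, all 18 libraries, a replicate block, and leaving out each library. Values over all 18 libraries used 1 common TMM scaling. Coordinates are RefSeq gene spans on GRCm38, joined by Entrez identifier for 14725 of the tested genes.

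The comparison, its members and the 35 gene lists were chosen with earlier results of these data known, and 2 more lists were written after the values were seen. Genes named from a ranking needed a call, no overlap, an established symbol and a mean of 5 CPM or more where they were higher. Genes named from a list were not held to the limits on overlap, symbol and CPM, so some had less than 5 CPM in both groups. The 12 largest rises and falls by log2 change, the 8 by CPM and the 6 largest differences each way were named, with up to 4 called members of each list by smallest adjusted p and any endoderm member. Smarca5 and Smarca1 were always named. Pou5f1, Dcn, Lum, Fap, Col1a2, Lox, Postn, Cdx2 and the genes of the 2 added lists other than Ctsl stand outside this rule and were chosen after their values were seen. A few genes are not reported here.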

Additional observations from a re-analysis of the deposited data

Results flagged for a closer look

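The effect of the ko was compared between the first libraries (ko 1 and ko 2 against wt 1 and wt 2) and the later ones (ko 3 to ko 5 against wt 6 to wt 8) by an interaction contrast in 1 edgeR fit of 10 libraries. Of 158 named genes that entered it, 135 differed at an adjusted p under 0.05, 90 with a positive and 45 with a negative difference. Over all genes tested the share called was 49.1%. Many of the named genes were picked for large changes or small adjusted p in these same libraries, and some for this difference itself. A higher share among the named genes, and its split by sign, therefore follows from the selection and tests nothing. Values are log2 change in the first minus log2 change in the later libraries, and each was picked out for that test of the difference between the sets.

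In the endoderm lists the transcription factor genes with a positive difference were Foxq1 (3.66), Gata6 (3.49), Sox17 (3.37), Gata4 (3.22), Foxa2 (3.02), Hnf4a (2.73), Sox7 (2.59) and Elf3 (0.45). Signals and receptors with a positive difference were Ihh (4.02), Pdgfra (3.66), Dkk1 (3.57), Pth1r (3.39), Cited1 (2.97), Epas1 (2.49), Fgfr4 (2.24), Bmp2 (2.10), Fst (1.71), Plat (1.31) and Thbd (1.08), and those with a negative one were Igfbp7 (−0.996) and Cxcr4 (−0.73). Basement membrane genes with a positive difference were P3h2 (3.47), Col4a2 (3.04), Col4a1 (3.01), Lama1 (2.98), Lamb1 (2.75), Serpinh1 (2.68), P4ha2 (2.52), Sparc (2.20), Lamc1 (1.86), Hspg2 (1.07), Lamb2 (0.95), Nid2 (0.52), Agrn (0.50) and Nid1 (0.34), while the value for Col18a1 was −0.74. Among transport genes the positive differences were those of Cubn (4.00), Lrp2 (3.12), Dab2 (3.07), Amn (2.57), Mttp (0.73) and Trf (0.49), and the value for Apob was −2.44.

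Of the genes with the largest rises or the largest positive differences, the values were those of Sprr2a1 (5.04), Aqp8 (4.62), Vnn1 (4.42), Klb (4.07), Spock1 (3.93), Rbmy (3.82), Tmprss2 (3.16), Tshr (2.81), Tnc (2.45), Mybpc3 (2.45), Ntn4 (2.34), Adrb1 (1.15) and Wnt6 (1.15). In the germline list 9 differences were called positive and 10 negative, and in the 2-cell-like list 7 negative and none positive. Tex19.1 had a positive value (0.49), and negative values were those of Cyct (−2.40), Zscan4c (−2.08), Sohlh2 (−1.70), Gpat2 (−1.66), Tdrd12 (−1.39), Mov10l1 (−0.82) and Rnf17 (−0.18). Other genes with large falls or large negative differences were Fam183b (−3.59), Scn2b (−3.29), Mobp (−3.15), Gjb1 (−2.86), Ndufa4l2 (−2.73), A2m (−2.71), Pla2g5 (−2.39) and Oas3 (−2.15). Further positive differences were found for Cdx2 (4.63), Postn (3.24), Smarca2 (2.62), H19 (2.56), Cyp26a1 (2.38), Ctgf (2.30), Eif2s3y (2.25), Lgmn (2.21), Msx2 (2.13), Ddx3y (2.11), Igf2 (2.11), Ctsl (1.98), Dusp4 (1.94), Wnt4 (1.75), Lhx2 (1.23), Gata2 (0.78), Id1 (1.60), Bmp4 (1.58), Cyr61 (1.56), Krt18 (1.49), Krt8 (1.37), P4hb (1.21), Uty (1.13), Etv4 (1.08), H2-D1 (1.07), Sec24d (0.93), Ctsd (0.78), Cldn6 (0.76), Lamp1 (0.76), Calr (0.69), Kdelr3 (0.66), Cyp51 (0.57), Itgb1 (0.53), Tap1 (0.42), Baz1a (0.38), Myc (0.35) and Cdkn1a (0.31). Further negative ones were found for Pax6 (−2.50), Lefty1 (−2.03), Lefty2 (−1.67), Irf1 (−1.29), Zic2 (−0.96), Fbxo15 (−0.88), Slc7a3 (−0.84), Tdgf1 (−0.80), Eno1b (−0.73), Otx2 (−0.70), Smarca1 (−0.61), Tfap2c (−0.60), Pkm (−0.54), Ldha (−0.54), Klf2 (−0.44), Ccnd1 (−0.42), Mycn (−0.36), Chd3 (−0.32), Rpl10 (−0.31), Hnrnpu (−0.29), Hsp90ab1 (−0.29), Ncl (−0.25), Eef1a1 (−0.25), Ctcf (−0.23), Rps6 (−0.23) and Hsp90aa1 (−0.22).

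Dixon's test for a single outlying library was not run, because groups of 2 or 3 libraries are too small for it. With wt 3 to wt 8 as the later wild type, 1234 genes differed in place of 7231, so these calls depend on which wild-type libraries are used.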

How the results depend on the processing

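For the first libraries, 11083 genes were called, and the other settings gave 9065 (DESeq2's Wald test) to 11449 (no filter on low counts). With the replicate number as a block the count was 11445. Deviations from the group mean correlated by 0.0979 between ko 1 and wt 1 over 14742 genes. With 2 replicates per group this value cannot show whether the numbers pair the samples, and the block is given only here. Leaving out each library in turn gave 10085 to 10658. Testing against a 2-fold change with glmTreat left 2024 genes, 1143 higher and 881 lower, and of the endoderm members 37 higher and 2 lower. In the other settings 43 to 50 endoderm members were higher and 2 to 4 lower. With all 18 libraries in 1 fit the calls were 9209, and fewer members passed among remodelling ATPases (10 in place of 16), CTCF and cohesin genes (8 in place of 13), DNA methylation enzymes (8 in place of 13) and ribosomal proteins (14 in place of 28). A minimum of 50 counts left fewer genes to test and 4 primitive streak, 3 Hox and 5 2-cell-like genes called, and without a filter 16 Hox genes were called. With wt 3 to wt 8 as later wild type, the genes whose effect differed between sets numbered 1234 in place of 7231, and the later calls 6995 in place of 10753. The cause was not tested. Leaving out 1 library gave 6381 to 6918 and 10238 to 10897. Among 2450 values of the 205 genes open to naming, 2430 kept direction and call, 20 lost the call (Foxa1, Cebpa, Hhex, Apom, Soat2, Apoc2, Ndufa4l2 and Lama5) and none reversed. With library size alone the median shifted by 0.04, and 53.6% of calls in place of 50.3% were higher. Depth limits genes under a few counts per library, such as Foxa1 and Ttr.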

Other observations

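Genes of the lysosome and of the secretory pathway formed 2 further groups with a shared direction. Both lists were written after the values had been seen, so their counts describe these libraries and test nothing. Of 37 tested lysosomal genes 29 were higher and 6 lower in the first ko libraries (median log2 change 0.64, against 0.00 over all genes tested), and the list took 0.673% and 0.697% of counts in ko and 0.307% and 0.314% in wild type. Ctsl, encoding the protease cathepsin L, had 1356 and 1458 CPM in ko, against 321 and 313 CPM in wild type (2.15 ± 0.04). Lgmn, encoding the protease legumain, had 539 and 585 CPM in ko and 108 and 114 CPM in wild type, and the membrane protein gene Lamp1 had 986 and 983 CPM in ko and 375 and 368 CPM in wild type. Against this direction went Lipa, a lysosomal lipase gene, with 1.54 and 1.98 CPM in ko and 14.5 and 15.4 CPM in wild type, and Tpp1, a lysosomal peptidase gene, with 11.6 and 9.49 CPM in ko and 75.4 and 74.7 CPM in wild type. In the later libraries the changes were −3.01 for Lipa and −2.78 for Tpp1, and the difference between the sets was not called for either (adjusted p = 0.82 for Lipa and 0.69 for Tpp1). Of 27 tested genes of secretion and collagen folding 26 were higher and none was called lower (median 0.71), for example P4hb, a subunit of collagen prolyl hydroxylase, with 1029 and 1088 CPM in ko and 555 and 552 CPM in wild type. In the later libraries their median was −0.04, with 8 higher and 12 lower.

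Cell cycle genes were mixed, with 12 of 31 higher and 17 lower. Mycn had 91.4 and 89.2 CPM in ko, against 263 and 262 CPM in wild type, and Ccnd1, encoding cyclin D1, had 70.0 and 66.7 CPM in ko, against 216 and 209 CPM in wild type. Ribosomal protein genes fell in 27 of 40 cases in the first libraries and rose in 1 (median −0.11), whereas in the later libraries 26 rose and 3 fell (median 0.10). With library size alone as the scaling 23 were called in the first libraries, and with all 18 libraries in 1 fit 14. Of 15 genes of FGF signalling and its feedback 5 rose and 9 fell. Among them Dusp4, encoding a phosphatase that acts on MAP kinases, rose by 1.92 in the first libraries and changed by −0.03 in the later ones.

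By chromosome, median changes in the first libraries lay between −0.10 (X) and 0.06 (chromosome 10) for the autosomes and the X. Of 9 tested genes on the Y chromosome 5 rose and 4 fell, the rises being those of Rbmy and 4 predicted genes. Eif2s3y, a Y-linked translation factor gene, had 5.68 and 5.40 CPM in the first ko libraries and 74.2 and 75.4 CPM in wild type, a change of −3.76, and its change in the later libraries was −6.01. Over the Y-linked list the share of counts was 0.00147% and 0.00142% in the first ko, 0.0166% and 0.0159% in the first wild type, and 0.000227% to 0.00032% in the later ko libraries. All wild-type libraries lay between 0.0138% and 0.0166%. The share was 0.00011% to 0.00018% in the wild-type add-back libraries and 0.00054% and 0.00060% in the mutant add-back libraries. It was thus low in each add-back library too, also where wild-type Snf2h was expressed again. The cause was not tested.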
